A study of Rattus norvegicus with 6 samples.

Results

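Pleiotrophin (Ptn), midkine (Mdk) and the proteins that bind them at the cell surface were examined in VSMCs and mcPCs of the rat cortex. The set holds 9 genes, the ligands Ptn and Mdk and the receptors or binding proteins Ptprz1, Alk, Sdc1, Sdc2, Sdc3, Sdc4 and Ncl, out of 14607 genes listed in the deposited table. The genes were chosen by gene family, with the difference between mcPCs and VSMCs in these same mean values already known, so their values are a description and carry no test. Only genes with a read in every sample are listed. Of the 9 genes 8 had a row, and Alk was absent. VSMCs are the contractile smooth muscle cells of parenchymal arterioles, and mcPCs are the pericytes of the mid-capillary bed. Both came from the cortex of male Sprague-Dawley rats of 4 to 5 weeks, for which the labels give no treatment or transgene, and cortices of several rats were pooled for each isolation. VSMCs were captured with a lectin from dissociated arterioles after removal of CD31+ and CD11b+ cells. In contrast, mcPCs were what remained of the filtrate once endothelial, microglial, astrocytic and oligodendroglial cells had been taken out. After a digestion that both fractions shared, only the arterioles were digested again, with the enzymes Liberase TM and trypsin. Cell type and handling therefore cannot be told apart in the differences below. Neither fraction is a single cell type by construction, since ensheathing or venular pericytes may be among them and the mcPC fraction keeps whatever the antibodies missed.

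Pleiotrophin and midkine are a family of small secreted cytokines rich in basic residues, which bind the sulfated sugar chains of proteoglycans. PTPRZ1 is a receptor tyrosine phosphatase that carries chondroitin sulfate chains, and ligand binding is known to reduce its phosphatase activity so that its substrates stay phosphorylated. Syndecans are transmembrane proteoglycans with heparan sulfate chains that act as receptors or co-receptors, nucleolin (Ncl) is a nucleolar protein that can also be found at the cell surface, and ALK is a receptor tyrosine kinase. In the brain the family is known for effects on neurite outgrowth, glial precursors and blood vessels, and PTPRZ1 is best known from astrocytes and oligodendrocyte precursors.

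Messenger RNA of 3 VSMC and 3 mcPC samples was sequenced, and the table lists means that the authors took within each cell type, with no value per sample. The table also holds standard errors and p-values of the comparison that the authors made, and these were set aside. No spread between isolations is therefore given here, no difference below was tested, and intervals cover the counting of reads only. Reads assigned to genes averaged 62.0 M for a sample of VSMCs and 48.0 M for one of mcPCs. A pair of scales is used. TPM, a share of all transcripts corrected for their length, serves to compare genes within a cell type, and the ratio of the authors' mean normalized counts, given as log2 of mcPC over VSMC, serves to compare cell types. Erythrocyte transcripts took 66.9% of the TPM in mcPCs and 0.869% in VSMCs, and all other genes share what is left. The log2 ratio of the median gene was 0.01 on normalized counts and -1.72 on TPM as deposited. All 9 smooth muscle markers were at least 2-fold higher in VSMCs, where 13.9% of all genes were. All 7 mcPC markers with a row, of 8, were so in mcPCs, where 22.0% of all genes were. The authors had reported such directions from these same data, as for Acta2, Myh11, Abcc9 and Kcnj8, so these counts are no separate check. Of 5 markers of all mural cells Pdgfrb was higher in mcPCs (614 and 388 TPM in VSMCs and mcPCs, log2 ratio 1.168). Mcam and Notch3 were higher in VSMCs (log2 ratios -1.11 and -1.31). The smooth muscle gene Tagln had 19824 and 22.7 TPM, and the pericyte gene Higd1b had 93.1 and 367 TPM. The smooth muscle genes Acta2 and Myh11 had 17233 and 5085 TPM in VSMCs, where mcPCs had 20.2 and 4.604 TPM, and the pericyte genes Kcnj8 and Vtn had 346 and 1531 TPM in mcPCs, where VSMCs had 17.2 and 484 TPM.

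The members that differed most in either direction among those with a promoter entry were Ptn, which was higher in mcPCs, and Sdc4, which was higher in VSMCs. Their upstream sequences are shown because these genes mark the opposite ends of the members with such an entry. The 250 bases before the RefSeq start site in the GRCr8 assembly are printed 5′ to 3′ on the strand of the gene, for Ptn chr4:66342333-66342582 and for Sdc4 chr3:173592924-173593173, both on the minus strand. Capitals mark GGGCGG (the GC box), TGANTCA (the AP-1 motif) and TATAA, each searched on both strands, and the GC boxes 58 and 53 bases before the start of Sdc4 overlap.
Ptn: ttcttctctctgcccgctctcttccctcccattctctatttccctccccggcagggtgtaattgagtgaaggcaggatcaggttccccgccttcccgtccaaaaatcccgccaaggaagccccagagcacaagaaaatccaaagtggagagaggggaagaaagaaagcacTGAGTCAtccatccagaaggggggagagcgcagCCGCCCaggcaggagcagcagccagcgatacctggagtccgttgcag
Sdc4: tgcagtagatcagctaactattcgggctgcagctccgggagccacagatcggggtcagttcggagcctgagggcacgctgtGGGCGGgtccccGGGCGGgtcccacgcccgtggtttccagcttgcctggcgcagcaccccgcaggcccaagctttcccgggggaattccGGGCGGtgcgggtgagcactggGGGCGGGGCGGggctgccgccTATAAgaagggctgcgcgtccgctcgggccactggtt

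The promoter of Sdc4 held 5 GC boxes, a TATAA 37 bases before the start, and 23 CG dinucleotides. That of Ptn held 1 GC box, no TATAA, 9 CG dinucleotides, and the letters TGANTCA 80 bases before the start. Among all 33469 promoters of the RefSeq table, 30.5% hold a GC box in a window of this length, 24.0% a TATAA, 6.34% the AP-1 motif and 1.497% a CArG box, the motif bound by serum response factor, and the median number of CG dinucleotides is 5. Entries were found for 6 members, namely Ptn, Alk, Sdc1, Sdc3, Sdc4 and Ncl, and all 6 held at least 1 GC box. None held a CArG box or TGGGAA, the core of the RBPJ motif, which 22.1% of promoters hold. TATAA occurred in Sdc1 and Sdc4, and the number of CG dinucleotides ran from 9 in Ptn to 48 in Sdc3. These matches describe the letters of the windows and are not sites shown to be bound.

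Ptn was among the most abundant transcripts of mcPCs. The authors' mean was 63.4 TPM in VSMCs against 1642 TPM in mcPCs, with 2834 and 135860 reads a sample behind these values. In mcPCs it ranked 25 of all listed genes, or 18 once erythrocyte genes were left out, close to the mural marker Rgs5 with 1703 TPM and the pericyte gene Vtn with 1531 TPM. Mean normalized counts were 2021 in VSMCs and 188581 in mcPCs, a 93.3-fold difference and a log2 ratio of 6.54 (95% counting interval 6.51 to 6.57). Ptn was not absent from VSMCs, where its abundance lay above 83.9% of the listed genes. Midkine, the only other member of the ligand family, was far less abundant in both cell types. Mdk had 6.55 TPM in VSMCs against 20.1 TPM in mcPCs, with mean normalized counts of 97.3 and 1024, a 10.5-fold difference and a log2 ratio of 3.40 (95% counting interval 3.24 to 3.55). In bulk samples fewer cells of a type and less RNA per cell cannot be told apart, here and below. Both ligands were thus higher in mcPCs, and the balance between them differed, since Ptn was 9.67 times as abundant as Mdk in VSMCs and 81.8 times in mcPCs. That ratio is taken within a cell type and does not depend on how the cell types are scaled.

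**Figure D1:**
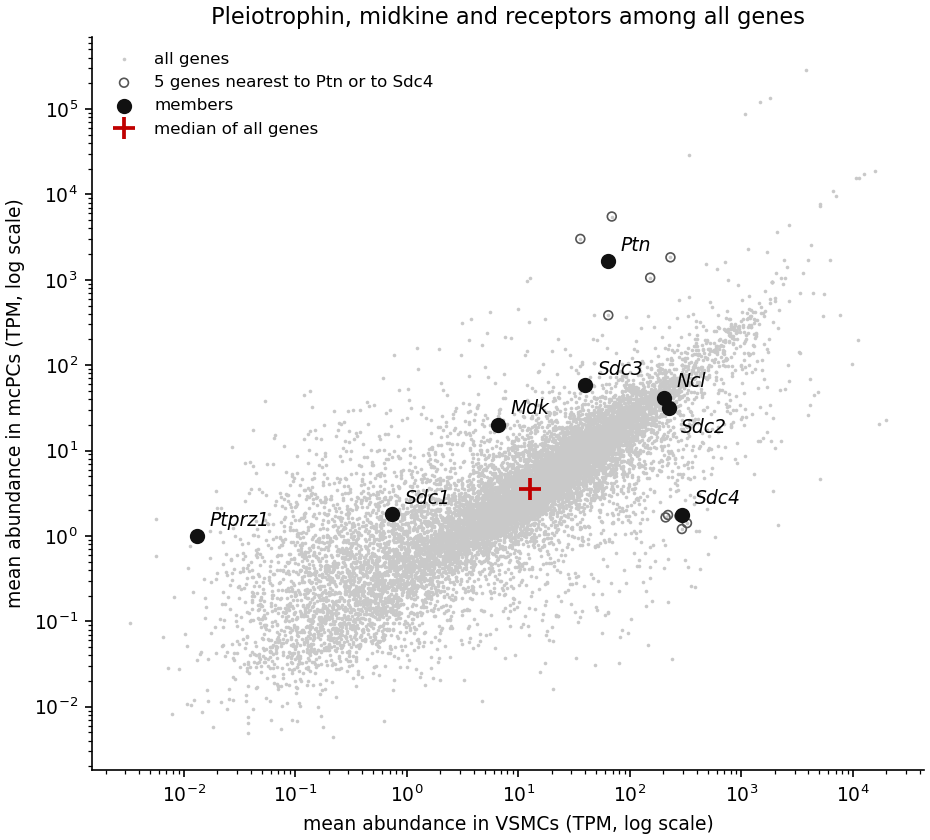
Mean abundance of every listed gene in VSMCs (horizontal) and mcPCs (vertical), in TPM on log axes, with the 8 members as black points, the 5 genes nearest to Ptn and to Sdc4 as open circles and the median of all genes as a red cross. Ptn lies far above the cloud at 63.4 and 1642 TPM and Sdc4 far below it at 297 and 1.77 TPM, while Ncl and Sdc2 lie within it.

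Ptprz1, which encodes the tyrosine phosphatase receptor of pleiotrophin, was nearly undetected in VSMCs and scarce in mcPCs. The authors' mean was 0.0131 TPM in VSMCs, from 12 reads over all samples (95% Poisson interval 6.201 to 21.0), and 0.993 TPM in mcPCs, from 1632 reads (95% Poisson interval 1554 to 1713). Mean normalized counts were 2.88 and 734, which gives a log2 ratio of 7.99 with a wide counting interval of 7.18 to 8.95. On TPM as deposited, with a pseudocount of 0.1, it was 3.27, where the median gene was at -1.72. Centred on the median gene it was 4.99. The pseudocount was larger than the 0.0131 TPM of Ptprz1 in VSMCs. In mcPCs its abundance lay above only 24.9% of the listed genes, and Ptn was 1654 times as abundant. Markers of astrocytes and oligodendrocyte precursors, cells known for Ptprz1, lay on both sides of its level in mcPCs. The astrocyte genes Slc1a3 and Gja1 had 12.7 and 2.68 TPM in mcPCs against 0.306 and 0.125 TPM in VSMCs, and the oligodendrocyte precursor genes Pdgfra and Cspg5 had 1.03 and 7.02 TPM against 0.575 and 4.17 TPM. S100b of the astrocyte list had 0.454 TPM in VSMCs against 2.36 TPM in mcPCs. The opposite direction was seen for Fgfr3 of the astrocyte list, with 13.0 TPM in VSMCs against 1.11 TPM in mcPCs and a log2 ratio of -1.79, and for Sox6 of the precursor list, with 24.9 and 0.682 TPM and a log2 ratio of -3.32. Below Ptprz1 in mcPCs were also the astrocyte genes Aqp4, Gfap and Sox9, with 0.0865, 0.270 and 0.286 TPM, and the precursor genes Olig2, Neu4, C1ql1 and Tnr, with 0.805, 0.213, 0.0576 and 0.0230 TPM, which were named after their values were seen. Of the astrocyte list 9 of 14 genes had a row and 6 were at least 2-fold higher in mcPCs, with a range of 0.0865 to 349 TPM there and 0.0539 to 789 TPM in VSMCs. Of the oligodendrocyte precursor list 7 of 12 genes had a row and 5 were at least 2-fold higher in mcPCs, and Olig1 and Sox10 were without a row. Over all genes the share higher in mcPCs by that limit was 22.0%. The part of such cells in the level of Ptprz1 was not tested.

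**Figure D2:**
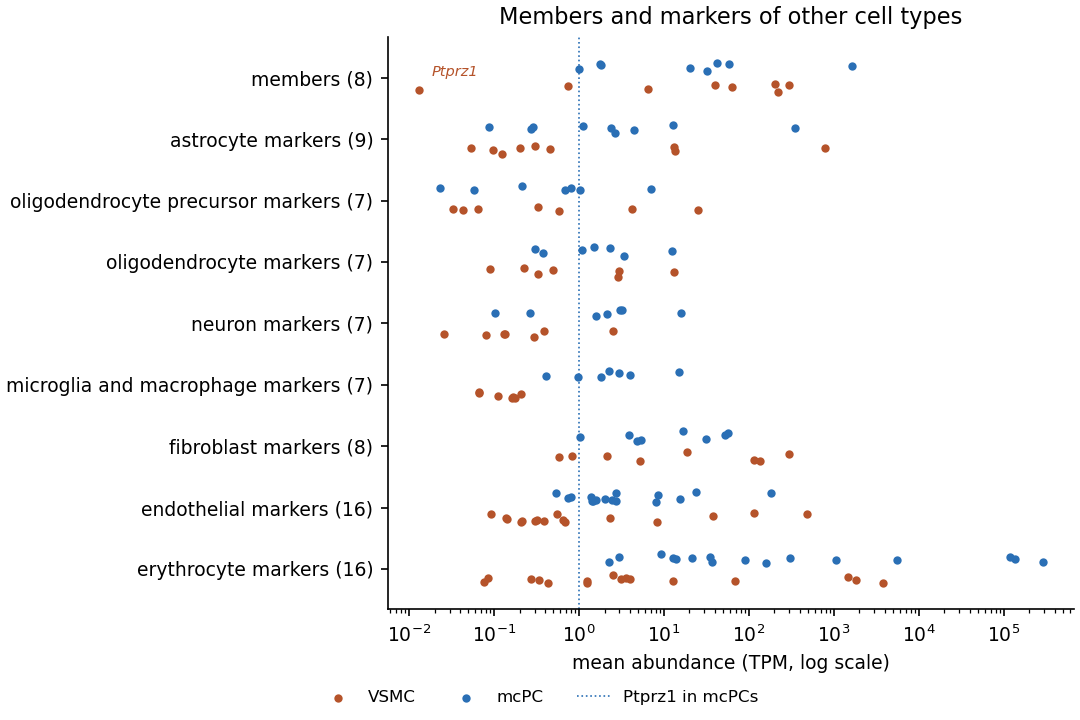
Mean abundance in TPM (log axis) of the members and of marker genes of other cell types, 1 point per gene in VSMCs (brown) and in mcPCs (blue), with the number of genes with a row in brackets. The dotted line marks Ptprz1 in mcPCs at 0.993 TPM. This lies within the mcPC range of every marker list except the fibroblast and erythrocyte lists, whose genes all lie above it there. The highest erythrocyte genes lie above all members.

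The level of Ptn in mcPCs can be set beside the same lists. Its 1642 TPM exceeded the summed TPM in mcPCs of the listed neuron genes (26.0), microglia and macrophage genes (27.5), oligodendrocyte precursor genes (9.83), oligodendrocyte genes (21.4), fibroblast genes (172), endothelial genes (258) and astrocyte genes (373, of which Atp1b2 made up 349). In VSMCs the same sums were 3.61, 0.959, 30.1, 20.04, 576, 654 and 817 TPM. Esam made up 487 TPM of the endothelial sum there, and Atp1b2 made up 789 TPM of the astrocyte sum. Being on TPM, the sums serve within a cell type and do not compare the cell types. At least 2-fold higher in mcPCs were 7 of 7 neuron genes with a row (of 11 listed), 7 of 7 microglia and macrophage genes (of 13), 6 of 7 oligodendrocyte genes (of 10), 5 of 8 fibroblast genes (of 10), 11 of 16 endothelial genes (of 18) and 16 of 16 erythrocyte genes (of 25). Over all genes this share was 22.0%. The 16 listed erythrocyte genes with a row, summing to 547595 TPM in mcPCs and 7225 TPM in VSMCs, were the exception. The shares of 66.9% and 0.869% given above cover 19 genes, these and further genes described as globin. The most abundant erythrocyte gene, Hba-a1, had a log2 ratio of 8.09, above that of Ptn. Next to Hba-a1 came Hba-a2 and Hbb, with log2 ratios of 8.08 and 8.21. Endothelial markers with a row included Cldn5, with 0.643 TPM in VSMCs, 15.4 TPM in mcPCs and a log2 ratio of 6.34. Others were Vwf (0.678 and 8.03 TPM, 5.30), Tie1 (0.546 and 2.76 TPM, 4.01) and Esam, the most abundant (487 and 184 TPM, 0.43). Negative ratios short of 2-fold were those of Flt1 (8.20 and 1.41 TPM, -0.78), Slc2a1 (115 and 23.9 TPM, -0.50) and Ocln (37.7 and 8.45 TPM, -0.33). These 3 genes were named after their values were seen. Pecam1 and Robo4 had no row. The neuron genes Tubb3, Snap25 and Gad1 had 15.7, 3.18 and 3.01 TPM in mcPCs and log2 ratios of 8.76, 4.77 and 2.06. The microglia and macrophage genes Ptprc, Csf1r and Cd68 had 15.1, 3.94 and 2.94 TPM in mcPCs and log2 ratios of 9.66, 6.99 and 5.56. The oligodendrocyte genes Cnp, Mbp and Cldn11 had 12.4, 3.42 and 2.34 TPM in mcPCs and log2 ratios of 1.73, 2.01 and 6.54. Of the astrocyte markers Slc1a2, Aldh1l1, Gjb6, Slc6a11 and Mlc1 had no row. The part of these cells in the level of Ptn was not tested.

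The syndecans, the heparan sulfate proteoglycans through which pleiotrophin and midkine can act, were each found in both cell types, but in different proportions. Sdc4, known from focal adhesions, had 297 TPM in VSMCs, above 96.4% of the listed genes, and 1.77 TPM in mcPCs, with 27366 and 299 reads a sample behind these values. Mean normalized counts were 19578 and 415, so that Sdc4 was 47.2-fold higher in VSMCs, with a log2 ratio of -5.56 (95% counting interval -5.66 to -5.46), lower than that of all but 0.575% of the listed genes. Sdc3, also called N-syndecan and known as a pleiotrophin receptor in neurite outgrowth, went the other way. It had 39.6 TPM in VSMCs against 58.4 TPM in mcPCs, with mean normalized counts of 5305 and 27942, a 5.27-fold difference and a log2 ratio of 2.40 (95% counting interval 2.38 to 2.42). Its log2 ratio was 0.56 on TPM as deposited, where the median gene was at -1.72.

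Sdc2 was abundant in both cell types. It had 223 TPM in VSMCs against 31.9 TPM in mcPCs, with mean normalized counts of 17667 and 9002, and its log2 ratio of -0.97 lay just short of a 2-fold difference. On the 6 other scales it was -0.83 on counts without erythrocyte genes and past that limit on the rest, with -1.01 on counts scaled by the median ratio, -1.09 on TPM centred on the median gene, -1.22 on TPM without erythrocyte genes, -1.56 on counts brought to equal totals and -2.80 on TPM as deposited. Sdc1, the syndecan best known from epithelia and plasma cells, was scarce in both, with 0.741 TPM in VSMCs against 1.804 TPM in mcPCs, the latter from 378 reads a sample and the former from 86.7. Its log2 ratio was 3.06 (95% counting interval 2.87 to 3.26).

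Within VSMCs, Sdc4 made up 53.0% of the summed TPM of the 4 syndecan genes, Sdc2 39.8%, Sdc3 7.07% and Sdc1 0.132%. Within mcPCs, Sdc3 made up 62.2%, Sdc2 33.9%, Sdc1 1.92% and Sdc4 1.89%. Sdc2 thus held a like share in both, while the leading syndecan was Sdc4 in VSMCs and Sdc3 in mcPCs. Sdc4 was 7.49 times as abundant as Sdc3 in VSMCs, and Sdc3 was 33.0 times as abundant as Sdc4 in mcPCs. Shares within a cell type are unaffected by the scaling between cell types, and their error between isolations cannot be had from mean values. Summed over the 4 genes, syndecan transcripts outnumbered Ptn 8.83 to 1 in VSMCs, whereas in mcPCs Ptn outnumbered them 17.5 to 1.

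**Figure D3:**
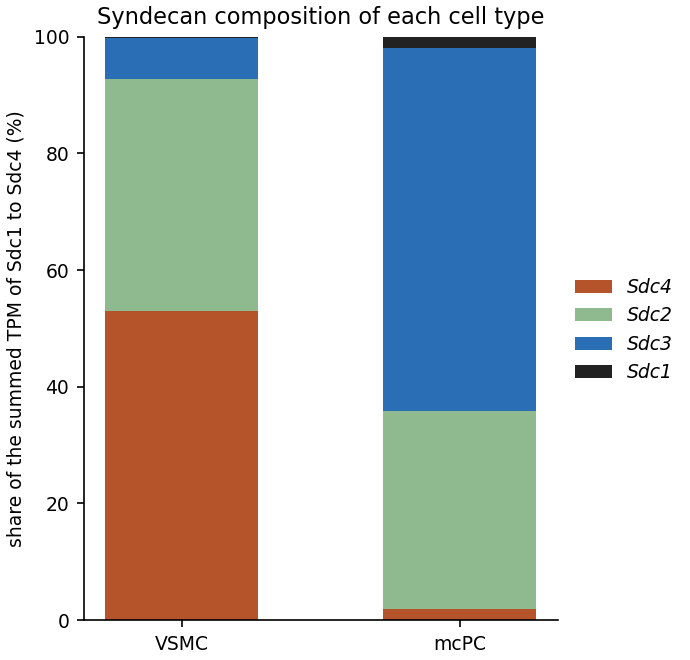
Share of each syndecan gene in the summed TPM of Sdc1 to Sdc4, in percent, for VSMCs and mcPCs. Sdc4 (brown) takes 53.0% in VSMCs and 1.89% in mcPCs, Sdc3 (blue) 7.07% and 62.2%, and Sdc2 (green) takes 39.8% and 33.9%.

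Ncl, whose product binds both ligands at the cell surface besides its work in ribosome production, had 201 TPM in VSMCs against 41.6 TPM in mcPCs, with mean normalized counts of 13790 and 9943 and a log2 ratio of -0.47 (95% counting interval -0.49 to -0.45). In each cell type it lay above about the same share of the listed genes, 94.8% in VSMCs and 94.2% in mcPCs. Of 14 other nucleolar genes, such as Npm1 with 250 and 74.9 TPM, none was 2-fold apart on normalized counts, and their median log2 ratio was -0.13 there and -1.90 on TPM as deposited. Over all genes 22.0% were 2-fold higher in mcPCs and 13.9% in VSMCs. Ncl was at -2.27 on TPM as deposited and at -1.04 on counts brought to equal totals, both past 2-fold, where the median gene was at -1.72 and -0.55. Ordered by TPM, the members ran Sdc4, Sdc2, Ncl, Ptn, Sdc3, Mdk, Sdc1 and Ptprz1 in VSMCs and Ptn, Sdc3, Ncl, Sdc2, Mdk, Sdc1, Sdc4 and Ptprz1 in mcPCs. Without values per sample it cannot be said whether close neighbours in these orders, such as Sdc2 and Ncl in VSMCs or Sdc1 and Sdc4 in mcPCs, differ beyond the spread between isolations.

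Counted with a 2-fold limit on mean normalized counts, 5 of the 8 members with a row were higher in mcPCs, where 22.0% of all 14607 genes were, and 1 was higher in VSMCs, where 13.9% of all genes were. Since the members were chosen with this comparison known, nothing is read from these shares. The median log2 ratio was 2.73 over the members and 0.01 over all genes. On TPM as deposited 4 members were higher in mcPCs and 3 in VSMCs, and over all genes the numbers turned from 3210 and 2034 to 1023 and 10564. No member changed sign on any scale, and over the scales Ptn ran from 4.69 to 6.69, Mdk from 1.599 to 3.58, Ptprz1 from 3.27 to 8.19, Sdc1 from 1.18 to 3.23, Sdc3 from 0.56 to 2.55, Sdc2 from -2.80 to -0.83, Ncl from -2.27 to -0.31 and Sdc4 from -7.31 to -5.41.

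**Figure D4:**
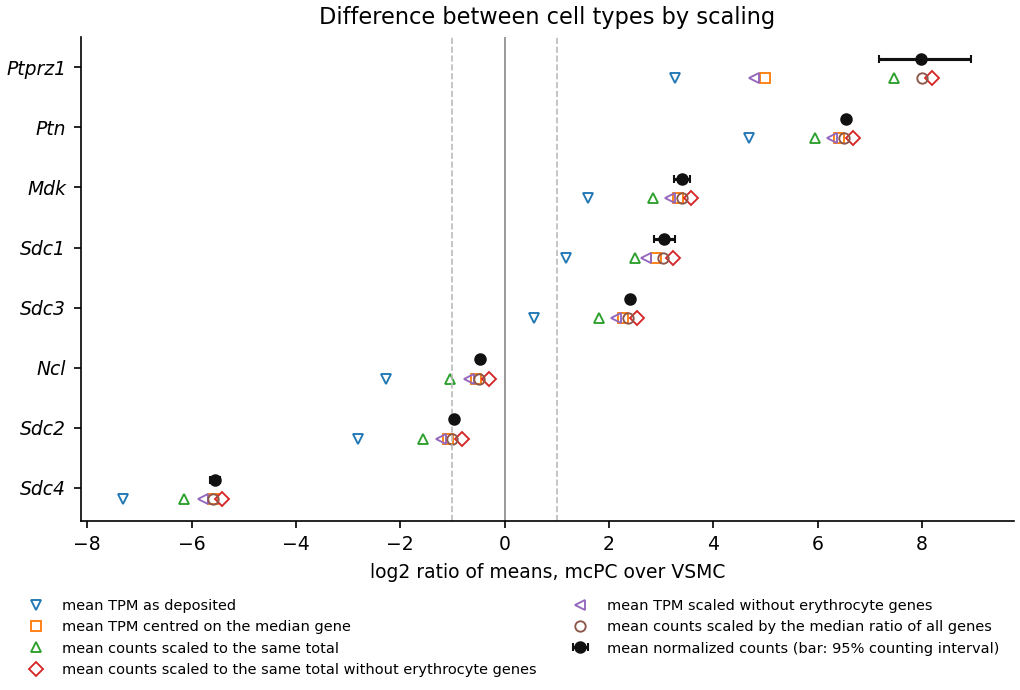
Log2 ratio of the authors' means, mcPC over VSMC, for each member on mean normalized counts (black, with the 95% counting interval) and on 6 other scales (open symbols), with dashed lines at 2-fold. Ptprz1, Ptn, Mdk, Sdc1 and Sdc3 stay above 0 and Ncl, Sdc2 and Sdc4 below 0 on all of these scales, and TPM as deposited gives the lowest value for each.

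Other proteins that bind these ligands or PTPRZ1 were taken from a list of 19 genes, 17 of which had a row. The list also holds relatives of PTPRZ1 and ALK and the ligand genes of the ALK family. At least 2-fold higher in mcPCs were 7 and in VSMCs 3, where 22.0% and 13.9% of all genes were. The median log2 ratio was 0.23, or -0.84 on TPM as deposited. The integrin chain Itgb1 was the most abundant of them, with 861 TPM in VSMCs against 140 TPM in mcPCs and a log2 ratio of -0.79. Itgb3, whose product pairs with integrin alpha v, had 5.78 and 3.97 TPM and a log2 ratio of 1.18. Higher in VSMCs were the integrin chain Itga6, with 13.7 and 1.07 TPM and a log2 ratio of -1.94, and Notch2, with 27.7 and 2.91 TPM and a log2 ratio of -1.45. The chondroitin sulfate proteoglycan gene Cspg5 had 4.17 and 7.02 TPM and a log2 ratio of 2.60, and the glypican gene Gpc2 had 0.570 and 1.74 TPM and a log2 ratio of 3.40. Some genes were picked from the list after their values were seen. Ptprg, the closest relative of Ptprz1, had 46.8 TPM in VSMCs against 8.64 TPM in mcPCs with a log2 ratio of -0.62, and so was far more abundant than Ptprz1 in both. Cntn1, a neuronal partner of PTPRZ1, had 0.0465 and 0.702 TPM with a log2 ratio of 5.71. Lrp1, a receptor that midkine can use, had 46.6 and 26.0 TPM with a log2 ratio of 0.99. Of the ALK family, Ltk had 0.394 and 0.440 TPM with a log2 ratio of 1.94. The ligand gene Fam150b, counted above as higher in VSMCs, had 0.719 and 0.0470 TPM with -2.10.

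Downstream of the receptors, 22 of 22 listed signalling genes had a row. Of these 3 were at least 2-fold higher in mcPCs and 3 in VSMCs, where 22.0% and 13.9% of all genes were. The median log2 ratio was -0.17, or -1.97 on TPM as deposited. The kinase genes Fyn and Src were higher in mcPCs, with log2 ratios of 1.33 and 1.34 and 18.4 and 23.4 TPM there. Ctnnb1, which encodes the PTPRZ1 substrate beta-catenin, was the most abundant in both cell types, with 181 TPM in VSMCs against 32.6 TPM in mcPCs and a log2 ratio of -0.67. Higher in VSMCs were Stat3 with a log2 ratio of -1.23, the scaffold gene Magi1 with -2.06 and the insulin receptor substrate gene Irs1 with -2.88.

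The ligands hold on to sulfated sugar chains, and the genes of heparan sulfate chains were examined next. The list joins enzymes that build the chain with those that remove sulfate or cut it (Sulf1, Sulf2, Hpse) and with Hpse2. Of 30 genes 23 had a row, and 7 were at least 2-fold higher in mcPCs and 3 in VSMCs, where 22.0% and 13.9% of all genes were. The median log2 ratio was 0.60 on normalized counts and -1.19 on TPM as deposited. Extl3, whose product starts the chain, was the most abundant in both cell types, with 125 TPM in VSMCs against 36.9 TPM in mcPCs and a log2 ratio of 0.07. The pair of N-sulfating enzymes differed in direction, since Ndst1 was higher in VSMCs with a log2 ratio of -2.26 (37.0 and 2.18 TPM) and Ndst2 in mcPCs with 1.30 (9.01 and 6.34 TPM). Hs3st1, a sulfotransferase of the finished chain, had 2.12 and 8.68 TPM and a log2 ratio of 3.88, and Sulf2, which removes sulfate outside the cell, had 1.66 and 3.57 TPM and a log2 ratio of 2.90. Extl1, a relative of the chain-building enzymes, was higher in VSMCs with 7.001 and 0.296 TPM and a log2 ratio of -2.79. Hpse2, a relative of heparanase without its activity, had 18.03 TPM in VSMCs against 0.0762 TPM in mcPCs, where it rested on 4 reads, with a log2 ratio of -6.06. Heparanase itself, Hpse, was named after its value was seen and had 0.585 and 1.74 TPM with a log2 ratio of 3.32.

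Other proteoglycan cores numbered 24 in the list, of which 18 had a row. At least 2-fold higher in mcPCs were 9 and in VSMCs 4, where 22.0% and 13.9% of all genes were. The median log2 ratio was 1.08, or -0.72 on TPM as deposited. Bgn, a small matrix proteoglycan, was the most abundant in both, with 1062 and 184 TPM and a log2 ratio of -0.70. Higher in mcPCs were agrin, a heparan sulfate proteoglycan of the basement membrane (Agrn, 218 and 153 TPM, log2 ratio 1.31), Srgn (26.2 and 25.6 TPM, 1.76) and Dcn (18.7 and 16.9 TPM, 1.54). Higher in VSMCs were Col18a1 (333 and 39.9 TPM, -1.24), Gpc4 (93.9 and 7.25 TPM, -1.87) and Nrp1 (53.8 and 6.92 TPM, -1.15). Dcn is also a fibroblast marker, and the other fibroblast markers went in both directions. Apod (2.13 and 51.7 TPM, log2 ratio 6.42) and Lum (5.19 and 4.86 TPM, 1.61) were higher in mcPCs, Ogn was higher in VSMCs (135 and 5.41 TPM, -2.88), and Col3a1, the most abundant, was under 2-fold (299.7 and 56.5 TPM, -0.63).

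Proteins that bind or shed syndecans were represented by 20 genes with a row of 21. Of these 4 were at least 2-fold higher in mcPCs and 3 in VSMCs, where 22.0% and 13.9% of all genes were. The median log2 ratio was 0.07, or -1.65 on TPM as deposited. Actn1, whose product alpha-actinin binds the tail of syndecan 4, had 714 TPM in VSMCs against 11.04 TPM in mcPCs with a log2 ratio of -4.20, and Timp3, an inhibitor of shedding proteases, had 708 and 48.5 TPM with -2.06. Synj2, a lipid phosphatase gene, had 12.2 and 0.0876 TPM with -5.32. Vcl, encoding vinculin of focal adhesions, was the most abundant in mcPCs, with 281 and 49.6 TPM and a log2 ratio of -0.68. Higher in mcPCs were Ezr, encoding the membrane linker ezrin, with 13.1 and 23.9 TPM and a log2 ratio of 2.70, and the adhesion protein gene Pxn with 12.7 and 7.73 TPM and 1.08. Named after their values were seen, the exchange factor gene Tiam1 had the highest log2 ratio of the list, 4.73, at 0.0998 and 0.778 TPM, and the sheddase gene Mmp14 had 145 and 33.8 TPM with a log2 ratio of -0.27.

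**Figure D5:**
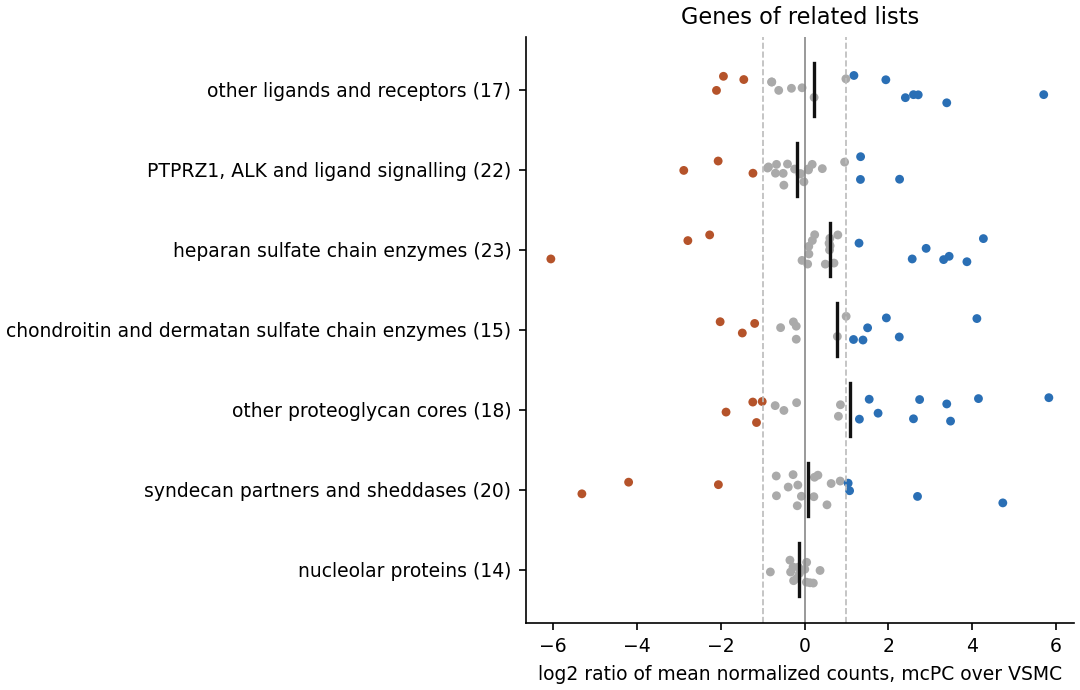
Log2 ratio of mean normalized counts, mcPC over VSMC, for the genes of each list (1 point per gene, number of genes with a row in brackets), in blue where at least 2-fold higher in mcPCs and in brown where higher in VSMCs, with black bars at the list medians, a grey line at the median of all genes (0.01) and dashed lines at 2-fold. The nucleolar genes lie close together around -0.13, while the other proteoglycan cores spread widely around 1.08.

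The genes most like Ptn and Sdc4 were sought by the distance between log2(TPM + 0.1) in the 2 cell types, which is a likeness over 2 mean values only. Nearest to Sdc4 were Adcy3 (279 and 1.71 TPM, distance 0.0995), Kank1, Hspb2, Tgfb3 and Tesc, all within 0.518. Nothing lay so near to Ptn. The 5 nearest genes were the globin gene LOC100134871 (36.0 and 3014 TPM, distance 1.196), Ybx3 (152 and 1059 TPM), the globin gene Hba-a3 (68.9 and 5516 TPM), Apoe (231 and 1835 TPM) and Slc25a39 (64.1 and 385 TPM, distance 2.09).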

How the data were processed

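The 6 samples (VSMCs, n = 3, and mcPCs, n = 3) had been sequenced, and 1 table was deposited. The authors estimated abundances with Salmon (version 0.8.0, per the labels) against Ensembl transcripts of the Rnor_6.0 assembly, combined them by gene and kept genes with a read in every sample. The table holds the authors' mean TPM, the authors' mean estimated counts (unnormalized), and the deposited normalized counts, a signal obtained by dividing counts with the normalization factors of DESeq2, all as means per cell type. Mean counts were taken as means per sequencing run, and reads of a sample are this mean over its 4 runs, summed. Of the mean counts 70.4% (VSMCs) and 71.8% (mcPCs) were whole multiples of 1 read over 12 runs (within 0.001 of the mean). Means of whole reads per sample would be such multiples too, so these shares alone do not separate the readings. Means per sample would make every whole total over 12 runs a multiple of 4, which the 413 reads of Mdk in VSMCs are not. The authors' log2 fold changes, standard errors and p-values were not used.

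The members and gene lists were chosen with earlier results of these data known. The comparison was the log2 ratio of mean normalized counts, with 2-fold as limit and no test, and counting intervals were exact (Poisson for reads, binomial for ratios) and cover counting error only, since reads of PCR libraries are not independent molecules. Scaling, pseudocounts, filters and the limit were varied. TPM ratios had a pseudocount of 0.1. For symbols on several rows the row with most counts was used. Besides the members, the text names for each list up to 3 genes per direction with the highest TPM among those 2-fold apart with at least 1 TPM, the most abundant gene in each cell type, and the 5 genes nearest to Ptn and to Sdc4, and says where others were added. For scaling without erythrocyte genes, 19 genes were left out. On simulated data with 14607 genes, the log2 ratios of 98.5% of 200 changed genes were recovered within 0.3. Besides these only erythrocyte genes were changed, and no spread between isolations was simulated. The normalized counts were made within the simulation from the median ratio of the other genes. The share recovered therefore checks the calculation only and says nothing on the accuracy of the ratios reported here. Promoters were matched by symbol in a RefSeq table of GRCr8. Since the table was mapped to another assembly, no other coordinates are given. Scripts used scipy 1.17.1, pandas 2.3.3, numpy 2.4.6 and matplotlib 3.10.9 under Python 3.11.15.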

Additional observations from a re-analysis of the deposited data

How the results depend on the processing

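No paired analysis was possible because the table gives means per cell type, and for the same reason no sample could be left out in turn. All log2 ratios of the 8 members kept their sign on each of the 8 scales and pseudocounts tried, where 26 values lay within the counting interval of the value reported and 38 outside it. Higher in VSMCs by at least 2-fold were 3 members on TPM as deposited and on counts brought to equal totals, and 2 on TPM centred on the median gene, on TPM without erythrocyte genes, on counts scaled by the median ratio and with a limit of 1.5-fold, against 1 as reported. A minimum of 0.8 TPM in VSMCs left 3 members higher in mcPCs in place of 5, because it removes Ptprz1 and Sdc1. Over all genes, those higher in mcPCs numbered 1023 on TPM as deposited, 1601 with a minimum of 0.8 TPM in VSMCs, 2019 with at least 1 TPM in either cell type and 1815 at 4-fold, and those higher in VSMCs 10564 on TPM as deposited, 4213 on counts brought to equal totals, 3422 at 1.5-fold and 836 at 4-fold. With erythrocyte genes left out of the total, Ptn in mcPCs came to 4967 TPM, Sdc3 to 177 TPM and Ptprz1 to 3.004 TPM. A pseudocount of 10 on normalized counts lowered the log2 ratio of Ptprz1 to 5.85. Depth limits Ptprz1 in VSMCs most, with 12 reads in all.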

Other observations

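The enzymes of chondroitin and dermatan sulfate, the chains that PTPRZ1 carries and to which both ligands bind, were listed with 16 genes, 15 of them with a row. At least 2-fold higher in mcPCs were 6 and in VSMCs 3, where 22.0% and 13.9% of all genes were. The median log2 ratio was 0.78 on mean normalized counts and -0.93 on TPM as deposited. Chpf, a chondroitin polymerizing factor, was the most abundant in VSMCs, with 104 TPM and 13.0 TPM in mcPCs and a log2 ratio of -1.19. Csgalnact1, which starts the chain, had 47.4 and 3.35 TPM with a log2 ratio of -2.01, and Chst15, which adds the sulfate that makes chondroitin sulfate E, a form known to bind midkine and pleiotrophin, had 19.5 and 2.001 TPM with -1.49. Higher in mcPCs were the dermatan sulfotransferase Chst14 with 12.3 and 9.77 TPM and a log2 ratio of 1.51, the chondroitin synthase Chsy1 with 8.99 and 6.81 TPM and 1.40, and Chst7 with 7.58 and 4.803 TPM and 1.169. The sulfotransferase Chst3, the most abundant in mcPCs, had 89.3 and 21.9 TPM and a log2 ratio of -0.20.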
